A study of Mus musculus with 8 samples.

Results

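The tripartite motif (TRIM) genes encode a large family of ubiquitin ligases, described here in the mouse macrophage-like line RAW264.7, which arose in a tumour induced by Abelson leukaemia virus. Members were chosen by symbol, as every row of the deposited count table named Trim plus a number and at most 1 letter from a to e, with at least 10 counts summed over the 8 libraries. Of 42454 rows in the table, 68 carried such a symbol and 42 of these reached the count minimum. Of the 42 members, 32 passed the count filter of the test across genes, and the other 10 are given below by their counts. Polyadenylated RNA was sequenced in 2 libraries for each of 4 labelled groups. By its label, the group LPS_IFNg_TubB received lipopolysaccharide (LPS, 10 ng/ml), interferon-gamma (IFN-γ, 20 ng/ml) and the compound Tubuloside B, a phenylethanoid glycoside, over 24 h. By their labels, LPS_IFNg had the same stimulus over 24 h without the compound, TubB had Tubuloside B alone, and mock had DMSO. The dose of Tubuloside B, and the treatment time of TubB and mock, are not given in the sources used here. All libraries come from a single cell line, and nothing in the labels tells whether replicates came from separate cultures, and the spread behind each p-value may therefore be technical.

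A typical TRIM protein has a RING domain that passes ubiquitin to a target, B-box zinc fingers and a coiled coil through which the proteins pair, followed by a variable end that picks the target. In macrophages the family is best known for innate immunity. Some members restrict viruses directly, others attach ubiquitin to sensors of foreign nucleic acid or their adaptors, and others switch those signals off. Many of these genes are induced by interferons. Other branches of the family act in chromatin, in the cytoskeleton and in muscle or nerve cells.

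The libraries did not follow their labels at genes that the stimulus is known to induce. Levels are given as counts-per-million values (CPM) of the library size that edgeR scales. The summed level of 6 stimulus markers (Nos2, Ptgs2, Il6, Il1b, Irf1 and Socs1) was 10381 and 8427 CPM in the libraries labelled LPS_IFNg_TubB, against 249 and 218 CPM in those labelled LPS_IFNg. It was 10039 and 7889 CPM in the libraries labelled TubB, against 228 and 205 CPM in those labelled mock. The stimulus markers were therefore high in both groups labelled with Tubuloside B and low in both groups labelled without it, whatever the stimulus on the label. Library labels are kept as deposited, each direction below sets libraries with one label against libraries with another, and what sets the labels and the markers apart was not tested. Were the labels TubB and LPS_IFNg exchanged, each value given for TubB against mock would compare the stimulus with DMSO. Each value for LPS_IFNg_TubB against LPS_IFNg would then compare the stimulus and compound with the compound alone. Values for LPS_IFNg against mock would compare the compound with DMSO. Those for LPS_IFNg_TubB against TubB would compare the stimulus and compound with the stimulus alone. By counts over all genes, the library closest to each library labelled LPS_IFNg was the mock library of the same replicate number, and the library closest to each labelled LPS_IFNg_TubB was the TubB library of the same number. Their mean chi-square per gene was 1.98 and 1.93 for LPS_IFNg with mock and 1.95 and 2.34 for LPS_IFNg_TubB with TubB, and between replicates of 1 group it ranged from 2.60 to 4.86.

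Library totals ranged from 4767894 to 8413834 counts, of which the 42 members held 0.124% to 0.151%. Of 10 macrophage markers, 9 were measured, with a summed level of 9869 to 10119 CPM in LPS_IFNg_TubB, 8116 to 8385 CPM in LPS_IFNg, 9538 to 10086 CPM in TubB and 8120 to 8129 CPM in mock, and Mertk was listed at 0. The sum rests mainly on Lyz2 and Cd14, and single markers differed. In both comparisons 6 of the 9 were called higher and 1 lower, beside 51.2% of all genes called in each. Adgre1 rose by 2.81 ± 0.15 in LPS_IFNg_TubB against LPS_IFNg and 2.71 ± 0.15 in TubB against mock on the log2 scale. Csf1r fell by 1.27 ± 0.09 and 1.20 ± 0.09. Of 22 markers of T cells, B cells, neutrophils, dendritic cells, fibroblasts and epithelium, 4 passed the filter. The defining markers Cd3e, S100a9, Ly6g, Mpo, Flt3, Col1a2 and Krt8 had 0 counts in all 8 libraries. Mpo also occurs as a numbered copy in the annotation, so its 0 does not show that the gene was silent. The 5 neutrophil markers summed to 43.0 to 46.4 CPM in LPS_IFNg_TubB, 6.29 to 7.24 CPM in LPS_IFNg, 37.4 to 57.1 CPM in TubB and 7.21 to 7.40 CPM in mock, from S100a8 and Csf3r alone. The 4 dendritic cell markers summed to 43.5 to 46.6 CPM in LPS_IFNg_TubB, 41.6 to 42.8 CPM in LPS_IFNg, 40.1 to 54.5 CPM in TubB and 40.4 to 43.7 CPM in mock. Within that list, Xcr1 averaged 11.8 ± 1.5 CPM in LPS_IFNg_TubB, against 0.170 ± 0.240 CPM in LPS_IFNg, and 15.2 ± 9 CPM in TubB, against 0.430 ± 0.411 CPM in mock (SD, n = 2 each), and was called higher in both comparisons, while Itgax fell by 0.34 ± 0.14 and 0.39 ± 0.13 on the log2 scale. Xcr1 passed the count filter only through the libraries labelled with Tubuloside B, so its direction was largely set by the filter. The lists for T cells, B cells, fibroblasts and epithelium each summed to at most 2.79 CPM in any library. The part of these cell markers in the results was not tested.

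Promoter sequence was read for 30 of the 42 members, in 43 windows of 300 bases (250 before the transcript start to 50 after it), from RefSeq on GRCm38.p6. A letter pattern was searched on both strands: GAAA, any 2 bases and GAAA again, the core of the interferon-stimulated response element, which IRF transcription factors bind. The response element core occurred in 6 of 30 members (20.0%) and in 1079 of 27025 genes of the table (3.99%). It occurred in 4 of 10 matched members that were higher in the libraries labelled TubB than in mock (Trim21, Trim34a, Trim12c and Trim30a), in 1 of 5 that were lower (Trim2), in 0 of 6 that were not called and in 1 of 9 that were not tested (Trim26). In the 250 bases before the start alone, the shares were 10.0% of members and 3.46% of all genes. These matches are descriptions of letters, and no match says only that these letters are not in the window.

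The stretches below show the response element core in the members that hold it, each read 5′ to 3′ along the gene's own strand, with the core, or its reverse complement, in capitals. They are given because 4 of these genes are among the members with the largest differences between the libraries. In Trim21, at chr7:102565447-102565476 on the minus strand, a pair of overlapping cores lies between bases 14 and 29 after the start. In Trim34a, at chr7:104244457-104244486 on the plus strand, the core lies at bases 11 to 20 after the start. For Trim12c (chr7:104353350-104353449, minus strand) and Trim30a (chr7:104465194-104465293, minus strand) the 100 bases before the start are shown, with the core 29 to 20 and 36 to 27 bases before it. A further Trim30a start, at chr7:104446104-104446133, holds the same core letters. Trim2 (chr3:84212791-84212820, minus strand) was lower in the libraries labelled TubB, and Trim26 (chr17:36836979-36837008, plus strand) had too few counts to test.
Trim21: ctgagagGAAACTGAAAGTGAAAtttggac
Trim34a: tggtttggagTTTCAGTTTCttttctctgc
Trim12c: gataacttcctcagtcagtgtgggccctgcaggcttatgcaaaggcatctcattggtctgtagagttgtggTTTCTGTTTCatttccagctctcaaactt
Trim30a: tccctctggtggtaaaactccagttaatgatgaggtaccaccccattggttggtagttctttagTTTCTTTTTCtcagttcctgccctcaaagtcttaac
Trim30a, further start: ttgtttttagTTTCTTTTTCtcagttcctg
Trim2: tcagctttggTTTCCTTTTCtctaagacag
Trim26: cttccgaTTTCACTTTCCTTTTCtcgggcc

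Between the libraries labelled TubB and mock, 12 of the 32 tested members were higher, 6 were lower and 14 did not pass the test (edgeR's quasi-likelihood test, Benjamini-Hochberg adjusted p under 0.05 over 11081 genes). Over all genes tested, 51.2% were called, 26.3% higher and 24.9% lower. The median log2 fold change was 0.31 over the tested members and -0.01 over all genes tested. Between the libraries labelled LPS_IFNg_TubB and LPS_IFNg, which share none with the first comparison, 11 members were higher, 6 were lower and 15 did not pass, beside 51.2% of all genes called, 26.2% higher and 25% lower, with a median of 0.14 over the members and -0.01 over all genes. All 11 members higher in the second comparison were also higher in the first, 5 members were lower in both, and 0 changed in opposite directions. Trim41 and Trim2 were called in TubB against mock alone and Trim29 in LPS_IFNg_TubB against LPS_IFNg alone, and the test of the difference between the comparisons, given below, called none of them. The libraries of the 2 groups did not overlap for 18 tested members higher and 9 lower in TubB than in mock, beside 37.6% and 38.6% of all genes tested. They did not overlap for 15 higher and 10 lower in LPS_IFNg_TubB than in LPS_IFNg, beside 38.1% and 37.8% of all genes tested. Members that passed only through the group where they are high had to differ, so these shares describe the tested members and not all 42. In bulk RNA, more cells with a transcript and more of it per cell cannot be told apart.

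**Figure D1:**
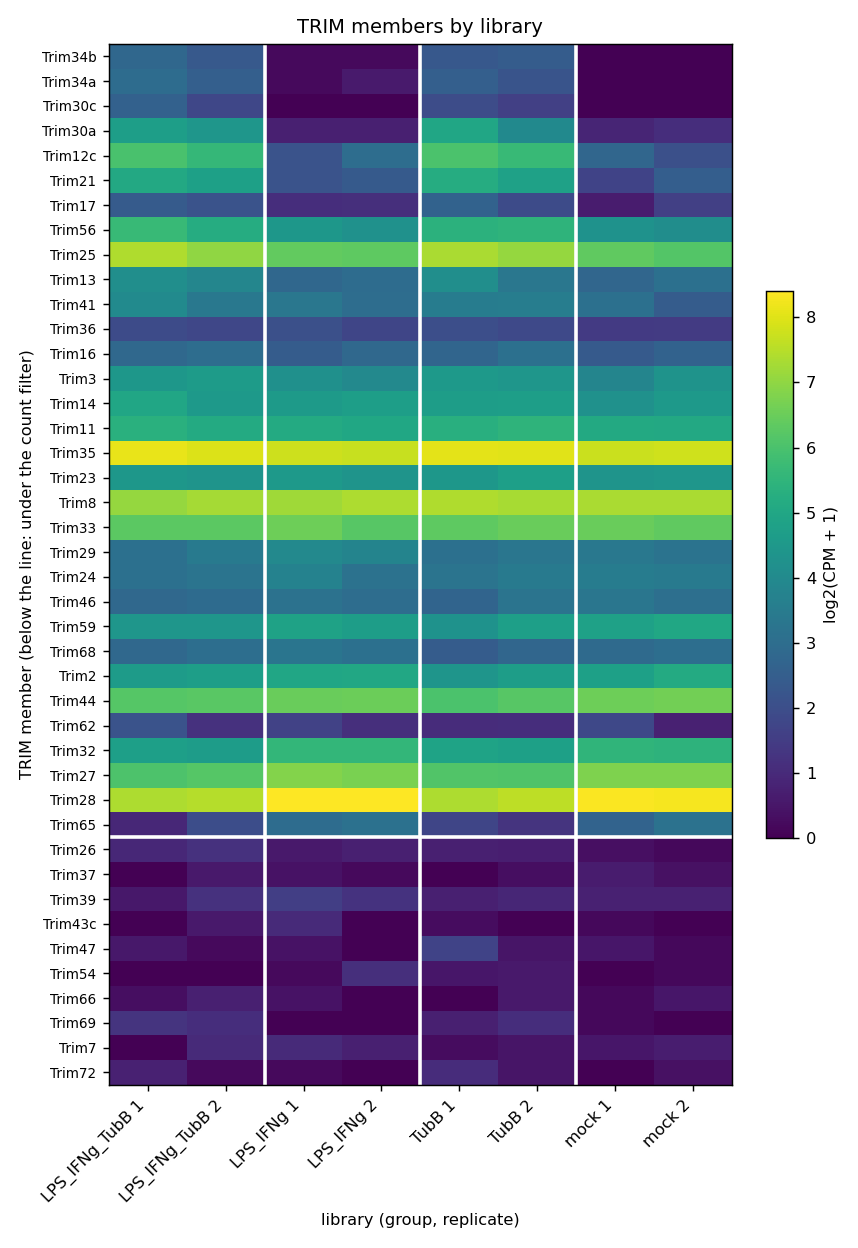
Level of all 42 TRIM members in the 8 libraries as log2(CPM + 1), by colour, with the groups LPS_IFNg_TubB, LPS_IFNg, TubB and mock from left to right. Tested members are ordered by their difference between TubB and mock, and the 10 members under the count filter stand below the white line. The upper rows are bright in LPS_IFNg_TubB and TubB and dark in LPS_IFNg and mock, with Trim34b, Trim34a and Trim30c at 0 counts in mock, while most middle rows look alike in all 8 libraries.

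The largest differences were in a cluster of TRIM genes on chromosome 7. This cluster holds Trim5, Trim6, Trim12a, Trim12c, Trim30a to Trim30d, Trim34a and Trim34b. Of these 10 genes, 5 had enough counts to test, and these were called higher in the libraries labelled TubB than in mock and in those labelled LPS_IFNg_TubB than in LPS_IFNg, beside 26.3% and 26.2% of all genes tested. Trim30a, Trim30c, Trim34a and Trim34b passed the count filter only through the libraries labelled with Tubuloside B, so their direction was largely set by the filter, and nothing is read from the count of 5. The 5 members span bases 104244448 to 104465193 of chromosome 7 (GRCm38.p6), and the other 5 genes of the cluster had at most 2 counts over the 8 libraries. Over the family, 11 members lie on chromosome 7 and 9 of these were tested. Of the 9, 6 were higher and 1 lower in both comparisons. Over all genes tested, 26.3% were higher and 24.9% lower in TubB than in mock, and 26.2% and 25% in LPS_IFNg_TubB than in LPS_IFNg. The 6 include the members whose direction was largely set by the filter, so nothing is read from this count either.

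Trim12c, which belongs to the mouse counterparts of primate TRIM5, a factor that recognises the capsid of incoming retroviruses, had 62.4 and 47.1 CPM in the libraries labelled LPS_IFNg_TubB, against 3.46 and 6.97 CPM in those labelled LPS_IFNg. It had 64.8 and 50.1 CPM in TubB, against 5.86 and 3.17 CPM in mock. The groups of each pair do not overlap, and the lowest library labelled with Tubuloside B stands far above the highest labelled without it. The log2 fold change was 3.38 ± 0.29 (standard error, SE) in the first pair (edgeR adjusted p = 1.75e-07) and 3.64 ± 0.28 in the second (edgeR adjusted p = 5.99e-08). Of the 50-base stretches of Trim12c transcripts (GENCODE M21), 33.7% also occur in other genes, chiefly Trim5, so reads of these genes can be lost or exchanged.

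Trim30a, which in the mouse dampens Toll-like receptor signalling by removing the adaptors Tab2 and Tab3, had 25 and 20.3 CPM in LPS_IFNg_TubB, against 0.658 and 0.680 CPM in LPS_IFNg. It had 30.7 and 15.1 CPM in TubB, against 0.837 and 1.15 CPM in mock. Replicate 1 of TubB held about as much again as replicate 2, and all 4 libraries labelled without Tubuloside B lie near 1 CPM. The log2 fold change was 5.03 ± 0.44 in the first pair (edgeR adjusted p = 8.66e-10) and 4.45 ± 0.39 in the second (edgeR adjusted p = 9.46e-10).

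Trim34a and Trim34b, neighbouring paralogs of the same cluster, were at or near 0 without the compound on the label. Trim34a had 6.89 and 4.79 CPM in LPS_IFNg_TubB, against 0.165 and 0.510 CPM in LPS_IFNg, and its log2 fold change was 4.03 ± 0.69 (edgeR adjusted p = 1.50e-05). It had 4.83 and 3.52 CPM in TubB, while both mock libraries held 0 counts, a difference of at least 18.8-fold when 3 counts are allowed over the mock group. Trim34b had 5.97 and 4.13 CPM in LPS_IFNg_TubB, against 0.165 and 0.170 CPM, 1 count in each library, in LPS_IFNg, a ratio of 29.3 (exact 95% counting interval 7.71 to 249). It had 3.95 and 4.40 CPM in TubB, while mock held 0 counts, at least 19.9-fold higher. The paralogs share much of their sequence: 59.7% of the 50-base stretches of Trim34a and 56.8% of those of Trim34b occur in other genes, and 56.8% of Trim34b in Trim34a, so their separate levels are uncertain. Without mock replicate 1 or 2 the bounds in TubB were 9.23-fold and 9.54-fold for Trim34a and 9.79-fold and 10.1-fold for Trim34b, which follows from a floor of 3 counts on a single library. Without LPS_IFNg replicate 2 the log2 fold change of Trim34a between LPS_IFNg_TubB and LPS_IFNg was 4.97.

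Trim30c, a further paralog in the cluster, had 5.05 and 2.48 CPM in LPS_IFNg_TubB, against 0 counts in both libraries labelled LPS_IFNg, at least 14.2-fold higher. It had 2.85 and 2.01 CPM in TubB, against 0 counts in both mock libraries, at least 10.9-fold higher. All 4 libraries labelled with Tubuloside B therefore held counts and none of the other 4 did. The bounds were 6.97-fold and 7.20-fold without LPS_IFNg replicate 1 or 2, and 5.36-fold and 5.54-fold without mock replicate 1 or 2.

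**Figure D2:**
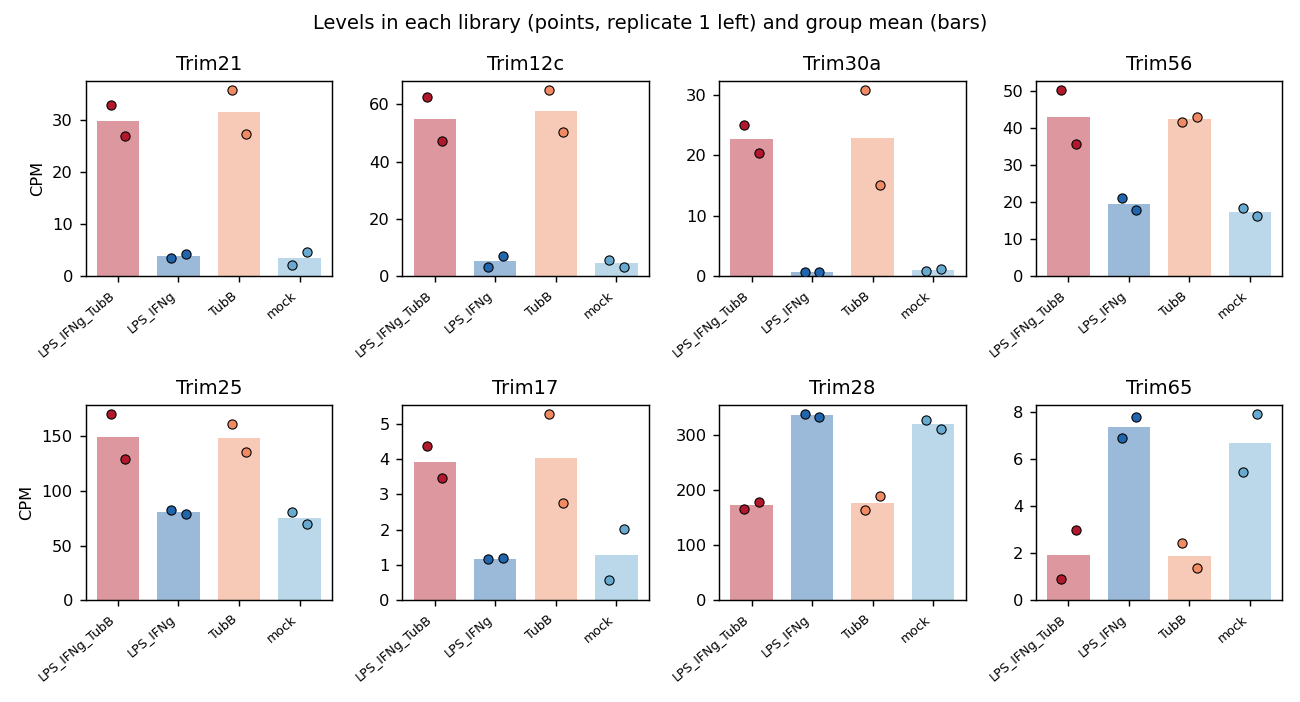
Level (CPM) of 8 TRIM members in each library (points, replicate 1 on the left) with the group mean (bars), in the groups LPS_IFNg_TubB, LPS_IFNg, TubB and mock from left to right. Trim21, Trim12c, Trim30a, Trim56, Trim25 and Trim17 stand higher in the groups labelled with Tubuloside B, and Trim28 and Trim65 stand lower, with no overlap of libraries within either pair.

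Of 19 genes listed for innate sensing and antiviral signalling, 15 were tested, and Trim31, Trim38 and Trim40 did not reach the count minimum of a member. Between TubB and mock, 5 were higher, 3 were lower and 7 did not pass, with a median log2 fold change of 0.25, beside 51.2% of all genes called. Between LPS_IFNg_TubB and LPS_IFNg, 5 were higher, 4 were lower and 6 did not pass, with a median of 0.10, again beside 51.2% of all genes. The share called in this list is near that of all genes. The higher members in both comparisons were Trim21, Trim56, Trim25, Trim13 and Trim35.

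Trim21, a cytosolic antibody receptor that marks antibody-coated viruses for destruction, had 32.8 and 26.8 CPM in LPS_IFNg_TubB, against 3.46 and 4.25 CPM in LPS_IFNg. It had 35.6 and 27.3 CPM in TubB, against 2.23 and 4.76 CPM in mock. The 2 mock libraries differ from each other more than the 2 LPS_IFNg libraries do, yet both lie well below each TubB library. The log2 fold change was 2.94 ± 0.27 in the first pair (edgeR adjusted p = 2.71e-10) and 3.15 ± 0.26 in the second (edgeR adjusted p = 3.50e-11), or 3.78 without mock replicate 2. Trim21 lies on the minus strand of chromosome 7, from base 102557920 to 102565482, apart from the cluster named above.

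Trim56, a ligase reported to act on cytosolic DNA sensing and against RNA viruses, had 50.3 and 35.7 CPM in LPS_IFNg_TubB, against 21.1 and 18 CPM in LPS_IFNg, a log2 fold change of 1.12 ± 0.17 (edgeR adjusted p = 2.45e-06). It had 41.7 and 43.1 CPM in TubB, against 18.4 and 16.4 CPM in mock, a log2 fold change of 1.28 ± 0.17 (edgeR adjusted p = 1.81e-07). The spread within LPS_IFNg_TubB was the widest of the 4 groups, without reaching the libraries labelled LPS_IFNg.

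Trim25, which attaches ubiquitin chains that activate the RNA sensor RIG-I, had 170 and 129 CPM in LPS_IFNg_TubB, against 82.5 and 79.0 CPM in LPS_IFNg, a log2 fold change of 0.88 ± 0.12 (edgeR adjusted p = 7.01e-06). It had 161 and 136 CPM in TubB, against 80.5 and 69.8 CPM in mock, a log2 fold change of 0.97 ± 0.12 (edgeR adjusted p = 1.81e-06). Unlike the members of the chromosome 7 cluster, Trim25 was well expressed in every library. On this row its groups differ by less than 2-fold without overlapping. Most reads of the gene were counted on a second row, described below. With both rows summed, the log2 fold change was 1.12 ± 0.11 between TubB and mock, more than 2-fold.

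Trim13, a ligase anchored in the endoplasmic reticulum, had 17 and 13.5 CPM in LPS_IFNg_TubB, against 5.93 and 6.80 CPM in LPS_IFNg, a log2 fold change of 1.25 ± 0.29 (edgeR adjusted p = 0.000614). It had 16.7 and 9.17 CPM in TubB, against 5.86 and 7.64 CPM in mock, a log2 fold change of 0.88 ± 0.28 (edgeR adjusted p = 0.0100). The call against mock was lost without mock replicate 1 (edgeR adjusted p = 0.108) or TubB replicate 1 (0.269). Exons of Kcnrg, on the same strand, overlap 10.5% of the exon bases of Trim13. Trim35 had 277 and 246 CPM in LPS_IFNg_TubB, against 217 and 208 CPM in LPS_IFNg, and 269 and 262 CPM in TubB, against 210 and 221 CPM in mock. Its log2 fold change of 0.30 ± 0.08 in each comparison was the smallest among the members that rose (edgeR adjusted p = 0.00200 with the stimulus on the label and 0.00154 without it). Without LPS_IFNg_TubB replicate 1 the first call was lost (edgeR adjusted p = 0.0577).

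The lower members of the innate list were Trim65, Trim27 and Trim32 in both comparisons, and Trim29 in LPS_IFNg_TubB against LPS_IFNg. Trim65, which activates the RNA sensor MDA5 with ubiquitin chains, had 0.918 and 2.97 CPM in LPS_IFNg_TubB, against 6.91 and 7.81 CPM in LPS_IFNg, a log2 fold change of -1.82 ± 0.44 (edgeR adjusted p = 0.00102). It had 2.42 and 1.38 CPM in TubB, against 5.44 and 7.93 CPM in mock, a log2 fold change of -1.89 ± 0.44 (edgeR adjusted p = 0.000647). Trim65 had the largest fall of the family, at low counts, and its groups do not overlap in either pair. Without LPS_IFNg_TubB replicate 2 its log2 fold change against LPS_IFNg was -2.98.

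Trim27, a ligase that works with the retromer in endosome sorting, had 66.1 and 71.4 CPM in LPS_IFNg_TubB, against 114 and 103 CPM in LPS_IFNg, and 69.0 and 67.3 CPM in TubB, against 108 and 108 CPM in mock. The log2 fold change was -0.65 ± 0.10 in the first pair (edgeR adjusted p = 2.55e-06) and -0.67 ± 0.10 in the second (edgeR adjusted p = 1.30e-06). Trim32, an NHL-repeat ligase whose human gene is mutated in a limb-girdle muscular dystrophy, had 25.7 and 24.0 CPM in LPS_IFNg_TubB, against 45.9 and 46.2 CPM in LPS_IFNg, and 28.3 and 26.4 CPM in TubB, against 44.0 and 42.3 CPM in mock. Its log2 fold change was -0.90 ± 0.14 in the first pair (edgeR adjusted p = 4.79e-06) and -0.66 ± 0.14 in the second (edgeR adjusted p = 0.000162). For both genes the replicates of each group lie close together relative to the difference.

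Trim29, which lacks a RING domain and restrains antiviral responses in mouse lung macrophages, had 7.58 and 9.75 CPM in LPS_IFNg_TubB, against 14.5 and 12.9 CPM in LPS_IFNg, a log2 fold change of -0.64 ± 0.25 (edgeR adjusted p = 0.0326). It had 7.69 and 8.92 CPM in TubB, against 9.35 and 8.22 CPM in mock, where the groups overlap (log2 fold change -0.07 ± 0.25, edgeR adjusted p = 0.854). The call was lost with DESeq2 (adjusted p = 0.151), without the count filter (0.0521), and without LPS_IFNg replicate 1 (0.152), LPS_IFNg replicate 2 (0.0537) or LPS_IFNg_TubB replicate 1 (0.206). The other tested members of the innate list, Trim8, Trim11, Trim14, Trim23, Trim62 and Trim68, were not called in either comparison. Trim8, which interacts with the cytokine signalling inhibitor Socs1, had 135 and 152 CPM in LPS_IFNg_TubB, against 148 and 164 CPM in LPS_IFNg, and 170 and 156 CPM in TubB, against 162 and 163 CPM in mock, so its groups overlap.

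**Figure D3:**
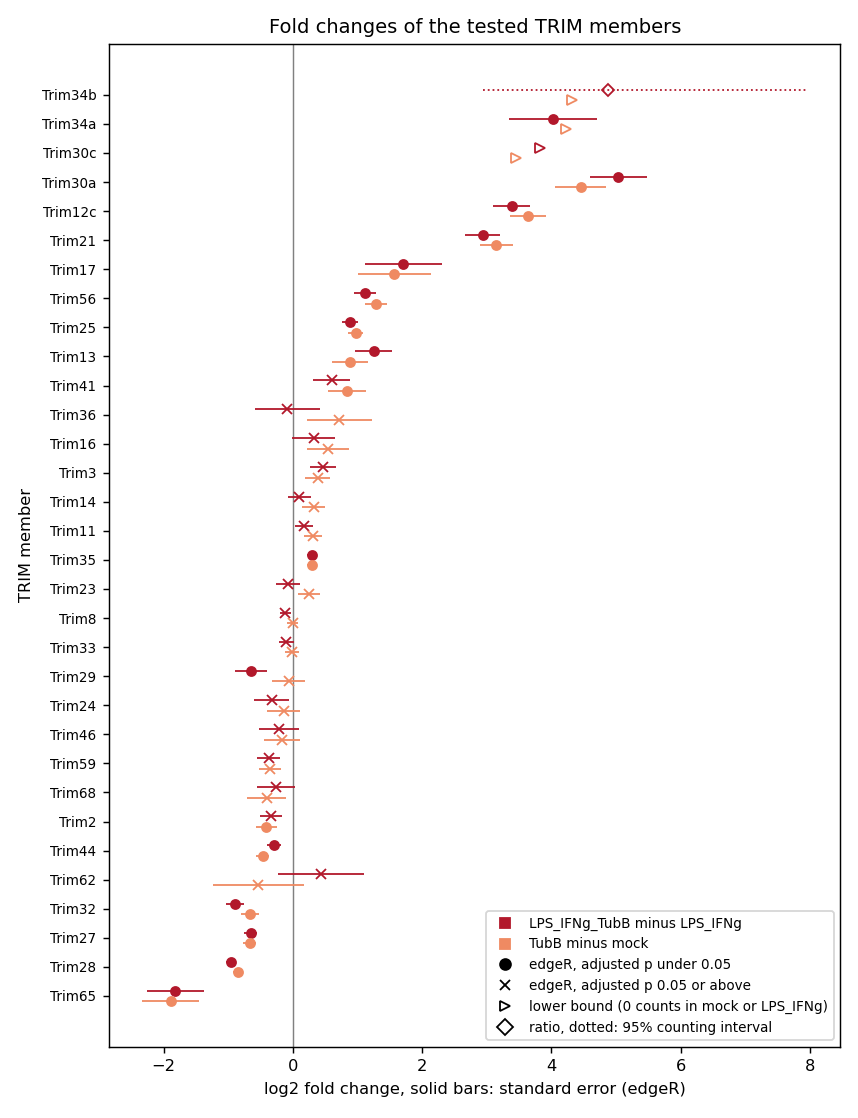
Log2 fold change of each of the 32 tested TRIM members in LPS_IFNg_TubB minus LPS_IFNg (red, upper mark of each pair) and in TubB minus mock (orange, lower mark). Solid bars are standard errors, triangles are lower bounds where mock or LPS_IFNg held 0 counts, and the diamond with the dotted line is a count ratio with its 95% counting interval. The 2 marks of most members lie within their bars of each other, from -1.89 for Trim65 to 5.03 for Trim30a.

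Among the members that act in chromatin and transcription, 3 of 4 were tested. In each comparison 0 were higher and 1 was lower, beside 51.2% of all genes called. The median log2 fold change was -0.33 between LPS_IFNg_TubB and LPS_IFNg and -0.14 between TubB and mock. Trim28, also called KAP1, is the corepressor that KRAB zinc finger proteins bring to DNA, where it silences retroelements. It had 166 and 178 CPM in LPS_IFNg_TubB, against 339 and 333 CPM in LPS_IFNg, and 164 and 190 CPM in TubB, against 328 and 312 CPM in mock. The 4 libraries labelled with Tubuloside B lie between 164 and 190 CPM, and the other 4 between 312 and 339 CPM. The log2 fold change was -0.96 ± 0.08 in the first pair (edgeR adjusted p = 3.40e-11) and -0.85 ± 0.08 in the second (edgeR adjusted p = 3.43e-10). Exons of Gm31649, on the opposite strand, overlap 13.5% of the exon bases of Trim28, and strand was not kept in the libraries. Trim24 and Trim33, corepressors of the same branch, were not called, with log2 fold changes of -0.33 ± 0.27 and -0.10 ± 0.11 between LPS_IFNg_TubB and LPS_IFNg and of -0.14 ± 0.26 and -0.01 ± 0.11 between TubB and mock.

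In the NHL-repeat branch, 3 of 4 listed genes were tested. Trim32, given above, fell in both comparisons. Trim2, a ligase known from neurons, had 23.6 and 24.9 CPM in LPS_IFNg_TubB, against 30.1 and 31.6 CPM in LPS_IFNg, a difference that was not called (log2 fold change -0.34 ± 0.17, edgeR adjusted p = 0.0944). It had 19.8 and 24.9 CPM in TubB, against 26.4 and 33.9 CPM in mock, and was called lower (-0.41 ± 0.17, edgeR adjusted p = 0.0394). That call was lost with DESeq2 (adjusted p = 0.164), with the compared groups alone (0.0643), and without mock replicate 2 (0.411), TubB replicate 1 (0.256) or LPS_IFNg replicate 2 (0.0504). Trim3 was not called in either comparison, with log2 fold changes of 0.46 ± 0.20 (edgeR adjusted p = 0.0551) and 0.38 ± 0.20 (edgeR adjusted p = 0.104). Of 7 genes listed for the cytoskeleton and muscle, Trim36 and Trim46 were tested and neither was called, beside 51.2% of all genes.

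The remaining 5 tested members stand in no role list. Between TubB and mock 2 of these were higher and 1 lower, beside 26.3% and 24.9% of all genes tested. Between LPS_IFNg_TubB and LPS_IFNg 1 was higher and 1 lower, beside 26.2% and 25% of all genes tested. Trim17, higher in both, passed the count filter only through the libraries labelled with Tubuloside B. Its direction was therefore largely set by the filter, and nothing is read from these counts. Trim44, an atypical member without a RING domain, had 71.9 and 74.7 CPM in LPS_IFNg_TubB, against 89.0 and 90.2 CPM in LPS_IFNg, and 64.1 and 73.5 CPM in TubB, against 92.8 and 98.1 CPM in mock. Its log2 fold change was -0.29 ± 0.10 in the first pair (edgeR adjusted p = 0.0202) and -0.46 ± 0.10 in the second (edgeR adjusted p = 0.000317). The first call was lost with DESeq2 (adjusted p = 0.0911) and in each fit without a library labelled LPS_IFNg or LPS_IFNg_TubB (edgeR adjusted p from 0.0501 to 0.111). Trim17, a ligase best known from neuronal cell death, had 4.36 and 3.47 CPM in LPS_IFNg_TubB, against 1.15 and 1.19 CPM in LPS_IFNg, and 5.27 and 2.76 CPM in TubB, against 0.558 and 2.02 CPM in mock. Its log2 fold change was 1.71 ± 0.60 in the first pair (edgeR adjusted p = 0.0180) and 1.57 ± 0.56 in the second (edgeR adjusted p = 0.0209). The second value was 0.92 without mock replicate 1 (edgeR adjusted p = 0.257) and 2.74 without mock replicate 2, and was not called without TubB replicate 1 (edgeR adjusted p = 0.214). DESeq2 called neither (adjusted p = 0.0674 and 0.0781), and the first call was also lost without LPS_IFNg replicate 1 (edgeR adjusted p = 0.0841), LPS_IFNg replicate 2 (0.0737) or LPS_IFNg_TubB replicate 1 (0.0844). Exons of the histone gene H2aw, on the same strand, overlap 12.8% of the exon bases of Trim17.

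Trim41, whose human counterpart acts against influenza virus, had 15.4 and 9.42 CPM in LPS_IFNg_TubB, against 9.05 and 6.97 CPM in LPS_IFNg, which was not called (log2 fold change 0.60 ± 0.29, edgeR adjusted p = 0.0859, or 0.0194 without LPS_IFNg_TubB replicate 2). It had 10.5 and 10.9 CPM in TubB, against 7.54 and 4.47 CPM in mock, and was called higher (0.84 ± 0.29, edgeR adjusted p = 0.0181). That call was lost with DESeq2 (adjusted p = 0.0899) and without mock replicate 2 (0.235) or TubB replicate 2 (0.0674). Trim16 and Trim59 were not called in either comparison.

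Some genes with the tripartite motif carry other names. Of Pml, Mefv, Mid1 and Mid2, Pml and Mid1 were tested. Both were higher in both comparisons, beside 26.2% of all genes in LPS_IFNg_TubB against LPS_IFNg and 26.3% in TubB against mock. Pml, the organiser of nuclear bodies that interferons enlarge, averaged 137 ± 16.7 CPM in LPS_IFNg_TubB, against 33.1 ± 0.976 CPM in LPS_IFNg, and 134 ± 14.2 CPM in TubB, against 35.5 ± 2.28 CPM in mock (SD, n = 2 each). Its log2 fold change was 2.04 ± 0.12 in the first pair (edgeR adjusted p = 8.61e-15) and 1.91 ± 0.11 in the second (edgeR adjusted p = 1.75e-14). Mid1, a microtubule-bound ligase mutated in human Opitz syndrome, averaged 9.77 ± 1.44 CPM in LPS_IFNg_TubB, against 3.75 ± 0.980 CPM in LPS_IFNg, and 6.64 ± 0.860 CPM in TubB, against 2.93 ± 2.17 CPM in mock (SD, n = 2 each; log2 fold changes 1.36 ± 0.38 and 1.16 ± 0.40, edgeR adjusted p = 0.00378 and 0.0161).

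The members summed here were picked for their large rise in the groups labelled with Tubuloside B. That their sum is high in the same groups as the stimulus markers follows from this choice, and nothing is read from it. The summed level of Trim21, Trim12c, Trim30a, Trim30c, Trim34a and Trim34b was 138 and 106 CPM in LPS_IFNg_TubB, 7.90 and 12.6 CPM in LPS_IFNg, 143 and 102 CPM in TubB and 8.93 and 9.09 CPM in mock. In both groups labelled with Tubuloside B, replicate 1 had the higher marker sum and the higher TRIM sum. Of the 12 members called higher against mock, 12 were higher in replicate 1 than in replicate 2 of LPS_IFNg_TubB and 9 in TubB, beside 71.8% and 75.8% of all genes called higher in the same comparison. In LPS_IFNg and in mock, 4 of the 12 were higher in replicate 1, beside 43.1% and 42.6% of those genes, and replicate 1 had the higher marker sum and the lower TRIM sum. The part of this difference between replicates in the results was not tested.

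Levels compared between genes are given per length, as transcripts-per-million values (TPM) from the deposited counts and exon lengths. In the libraries labelled LPS_IFNg_TubB the 5 highest members were Trim35 (164 ± 11.2 TPM), Trim28 (123 ± 7.84), Trim8 (81.1 ± 8.04), Trim25 (62.2 ± 11.2) and Trim27 (36.1 ± 2.48 TPM; SD, n = 2 each). In mock they were Trim28 (265 ± 11 TPM), Trim35 (157 ± 4.65), Trim8 (107 ± 0.403), Trim27 (65.9 ± 0.497) and Trim44 (45.7 ± 1.48 TPM; SD, n = 2 each). Neighbours in the mock order differ by more than their summed SDs. In LPS_IFNg_TubB, Trim8 and Trim25 do not, nor do Trim27 and Trim12c, which follows with 33.9 ± 6.23 TPM. The same members led when counts were only divided by length and library size (RPKM). Among these rows Trim35 therefore stood first in level where Trim28 was low, although the level of Trim35 itself differed little between the groups. This order leaves out the second Trim25 row, described below. With both rows, Trim25 would have rank 1 by mean level in LPS_IFNg_TubB and TubB, above Trim35, and rank 4 in mock.

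Trim28 held 16.3% of the summed TPM of the members in LPS_IFNg_TubB, against 31.1% in LPS_IFNg, and 16.4% in TubB, against 30.4% in mock. Trim12c held 4.47% in LPS_IFNg_TubB, against 0.417% in LPS_IFNg, and 4.58% in TubB, against 0.372% in mock. The summed level of the 42 members was 775 and 739 TPM in LPS_IFNg_TubB, against 923 and 875 TPM in LPS_IFNg, and 762 and 790 TPM in TubB, against 878 and 868 TPM in mock. On the CPM scale, which does not divide by length, the sums were 1416 and 1319 in LPS_IFNg_TubB, 1393 and 1348 in LPS_IFNg, 1409 and 1384 in TubB and 1345 and 1343 in mock. On the TPM scale the group labelled with Tubuloside B is the lower one in both pairs. On the CPM scale TubB is higher than mock, and LPS_IFNg_TubB and LPS_IFNg overlap. The scales thus differ in direction, and no direction is drawn for the family as a whole. These sums and shares leave out the second Trim25 row, described below. That row had 292 and 242 CPM in LPS_IFNg_TubB, against 131 and 127 CPM in LPS_IFNg. With it added, the CPM sums of LPS_IFNg_TubB and LPS_IFNg would not overlap, and the scales would still differ in direction.

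**Figure D4:**
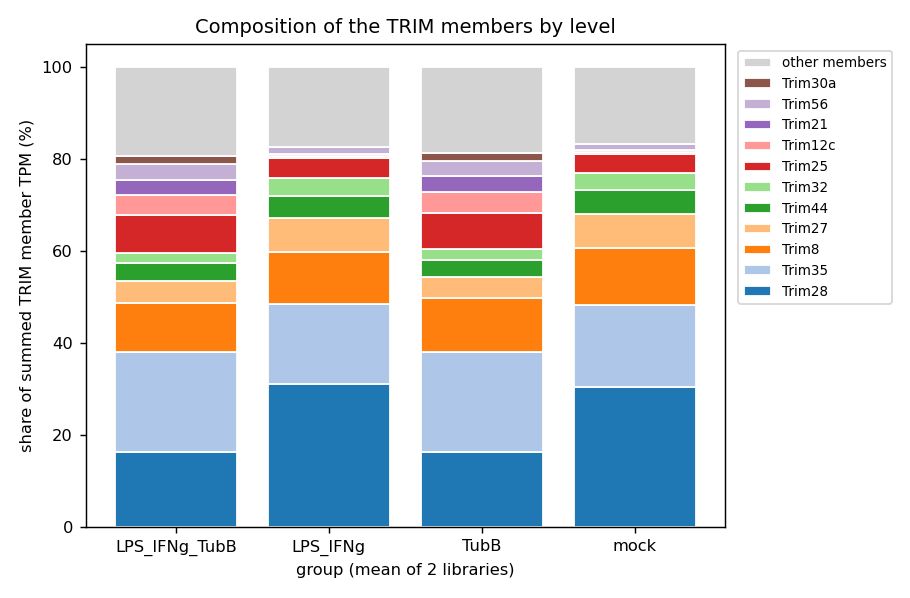
Share of the summed TPM of the 42 TRIM members held by 11 of them and by all others, as the mean of 2 libraries, in the groups LPS_IFNg_TubB, LPS_IFNg, TubB and mock. Trim28 takes 16.3% and 16.4% in the groups labelled with Tubuloside B, beside 31.1% and 30.4% in LPS_IFNg and mock, and Trim12c, Trim21, Trim56 and Trim30a take more.

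Trim25 occurs a second time in the annotation, as a numbered copy on a scaffold outside the chromosomes, and the symbol rule leaves that row out. The copy held 9194 counts over the 8 libraries and the chromosome 11 row 5363, so the copy took 60.3% to 65.2% of the counts of the 2 rows in each library. Reads that match both places equally would not be counted at either, since the counting call gave no option for reads that map to several places. The copy was higher in both comparisons on its own, with log2 fold changes of 1.05 ± 0.11 between LPS_IFNg_TubB and LPS_IFNg (edgeR adjusted p = 1.22e-07) and 1.21 ± 0.10 between TubB and mock (edgeR adjusted p = 1.48e-08). Summed before the fit, the rows gave 0.99 ± 0.11 (edgeR adjusted p = 9.23e-06) and 1.12 ± 0.11 (edgeR adjusted p = 2.59e-06). With both rows, Trim25 averaged 173 ± 24.1 TPM in LPS_IFNg_TubB, against 101 ± 4.23 TPM in LPS_IFNg, and 174 ± 17.8 TPM in TubB, against 92.2 ± 8.48 TPM in mock (SD, n = 2 each). It would then have rank 1 among the members by mean level in LPS_IFNg_TubB and TubB and rank 4 in LPS_IFNg and mock, although in replicate 2 of LPS_IFNg_TubB and of TubB it had rank 2.

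**Figure D5:**
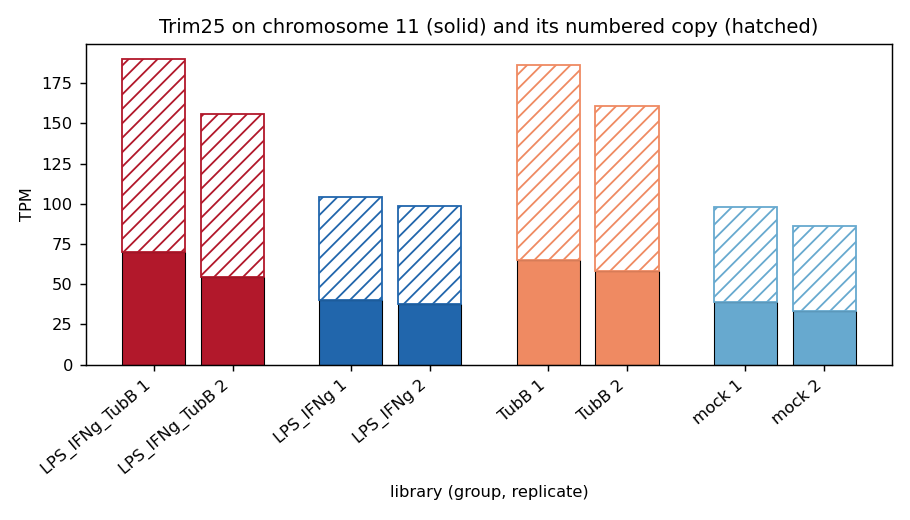
Level (TPM) of Trim25 in each of the 8 libraries, with the chromosome 11 row solid and the numbered copy hatched on top of it. The copy is the larger share in every library, 60.3% to 65.2% of the counts, and the total is higher in the 4 libraries labelled with Tubuloside B.

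The comparisons of the stimulus as labelled called 0 members. Were the labels TubB and LPS_IFNg exchanged, these would be the comparisons of the compound, which was not tested. Between LPS_IFNg and mock, edgeR called 0 of 32 members and 0 of 11081 genes, with 2 members and 247 genes at an unadjusted p under 0.05, and DESeq2 called 0 members. The 2 members were Trim29 and Trim34a. Trim29 had 14.5 and 12.9 CPM in LPS_IFNg, against 9.35 and 8.22 CPM in mock (log2 fold change 0.64 ± 0.24, unadjusted p = 0.0123, edgeR adjusted p = 1). Trim34a had 4 counts over the libraries labelled LPS_IFNg, against 0 in mock, at least 1.57-fold higher (unadjusted p = 0.0375, edgeR adjusted p = 1). Between LPS_IFNg_TubB and TubB, edgeR called 0 of 32 members and 0 of 11081 genes, with 0 members and 269 genes at an unadjusted p under 0.05, and DESeq2 called 0 members. The smallest unadjusted p among the members were 0.0515 for Trim8 (log2 fold change -0.18 ± 0.09) and 0.163 for Trim62, which had 3.44 and 1.32 CPM in LPS_IFNg_TubB, against 1.10 and 1.13 CPM in TubB.

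Whether the difference with the compound on the label depends on the stimulus on the label was tested as an interaction, the log2 fold change of LPS_IFNg_TubB minus LPS_IFNg less that of TubB minus mock. By edgeR 0 of 32 members and 0 of 11081 genes were called, with 0 members and 277 genes at an unadjusted p under 0.05, and DESeq2 called 0 members. The difference was 0.58 for Trim30a, -0.21 for Trim21 and -0.09 for Trim25. The smallest unadjusted p among the members were 0.0698 for Trim34a, which had 0 counts in mock, and 0.117 for Trim29 (-0.58 ± 0.36). A p that misses the threshold does not show that the differences are equal.

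The 10 members under the count filter were Trim7, Trim26, Trim37, Trim39, Trim43c, Trim47, Trim54, Trim66, Trim69 and Trim72, with 11 to 50 counts over the 8 libraries and at most 12 in any library. Trim69 had 6 and 7 counts in LPS_IFNg_TubB, against 0 in both libraries labelled LPS_IFNg, at least 4.98-fold higher, and 3 and 9 counts in TubB, against 1 and 0 in mock, a ratio of 13.5 (exact 95% counting interval 2 to 578). Without the count filter, edgeR called Trim69 in the first pair (adjusted p = 0.00939) and not in the second (adjusted p = 0.0767), and called no other of these members in either pair. Intervals and floors cover counting error only. The other 26 rows with a matching symbol had at most 5 counts each, and 17 had 0 in every library. Of those 17, 5 also occur as numbered copies (Trim10, Trim15, Trim31, Trim40 and Trim58), so a 0 there does not show that the gene was silent. Trim45 had 1 count, while its numbered copy had 102 and was not called in either comparison.

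The ligases work with partners that were listed separately. Of 26 listed partners in nucleic acid sensing, 25 were tested, with Mb21d1 not found under that symbol. Between LPS_IFNg_TubB and LPS_IFNg, 15 were higher, 5 were lower and 5 did not pass, beside 26.2% of all genes higher and 25% lower, with a median log2 fold change of 0.58 in the list and -0.01 over all genes. Between TubB and mock, 14 were higher, 5 were lower and 6 did not pass, beside 26.3% and 24.9% of all genes, with medians of 0.45 and -0.01. Among targets of TRIM ligases, Ddx58, the gene of RIG-I, which Trim25 acts on, averaged 60.3 ± 17.3 CPM in LPS_IFNg_TubB, against 8.62 ± 0.547 CPM in LPS_IFNg, and 52.4 ± 19.0 CPM in TubB, against 10.5 ± 0.245 CPM in mock (SD, n = 2 each; log2 fold changes 2.79 ± 0.31 and 2.28 ± 0.30). Ifih1, the gene of MDA5, which Trim65 acts on, averaged 64.5 ± 18.1 CPM in LPS_IFNg_TubB, against 1.66 ± 0.672 CPM in LPS_IFNg, and 55.8 ± 23.3 CPM in TubB, against 1.84 ± 0.559 CPM in mock (SD, n = 2 each; log2 fold changes 5.24 ± 0.53 and 4.87 ± 0.51). Ifih1 thus rose in the same libraries in which Trim65 fell.

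Rnf135, also called Riplet, a ligase that acts on RIG-I beside Trim25, rose by 1.46 ± 0.22 and 2.11 ± 0.22 on the log2 scale, in LPS_IFNg_TubB against LPS_IFNg and in TubB against mock. Tmem173, the gene of STING, a target of Trim56 and Trim32, rose by 1.52 ± 0.15 and 1.43 ± 0.14. Tab2, a target of Trim30a, rose by 0.47 ± 0.09 and 0.45 ± 0.09, and Tab3 rose by 0.67 ± 0.19 in the first comparison and was not called in the second (0.17 ± 0.18). Of the partners that were lower in both comparisons, Traf3 fell by 0.69 ± 0.10 and 0.60 ± 0.10, Irf3 by 0.60 ± 0.14 and 0.41 ± 0.14, Nlrx1 by 1.04 ± 0.20 and 0.79 ± 0.20, and Tab1 by 0.78 ± 0.26 and 1.27 ± 0.26. Mavs, the adaptor of both RNA sensors, was lower in TubB than in mock (-0.46 ± 0.15) and not called in LPS_IFNg_TubB against LPS_IFNg (-0.26 ± 0.15).

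Of 18 ubiquitin-conjugating enzymes and cofactors, all of which were tested, 7 were higher and 1 was lower in LPS_IFNg_TubB than in LPS_IFNg, with a median log2 fold change of 0.15, and 7 were higher and 2 lower in TubB than in mock, with a median of 0.10. Among all genes tested 51.2% were called in each comparison, so the share of these enzymes called does not stand apart. The 3 with the largest differences belong to the pathway of ISG15, a ubiquitin-like protein. Ube2l6, its conjugating enzyme, averaged 76.0 ± 8.69 CPM in LPS_IFNg_TubB, against 11.9 ± 2.63 CPM in LPS_IFNg, and 84.2 ± 15 CPM in TubB, against 12.5 ± 1.92 CPM in mock (SD, n = 2 each). Uba7, its activating enzyme, averaged 86.4 ± 5.77 CPM in LPS_IFNg_TubB, against 13 ± 2.31 CPM in LPS_IFNg, and 95.8 ± 8.04 CPM in TubB, against 17.9 ± 3.69 CPM in mock (SD, n = 2 each). Isg15 itself averaged 60.8 ± 26.9 CPM in LPS_IFNg_TubB, against 1 ± 0.214 CPM in LPS_IFNg, and 58.6 ± 33.3 CPM in TubB, against 1.06 ± 0.276 CPM in mock (SD, n = 2 each). Enzymes that TRIM ligases commonly use differed less: Ube2d3 rose by 0.49 ± 0.07 and 0.38 ± 0.07 on the log2 scale, and Ube2n, which builds the chains that activate RIG-I signalling, fell by 0.24 ± 0.10 in TubB against mock and was not called in LPS_IFNg_TubB against LPS_IFNg (-0.19 ± 0.10).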

How the data were processed

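The authors deposited raw read counts per gene for 8 libraries, together with each gene's summed exon length in bases and regularised log2 values (rlog) of the same genes. The submitters' processing notes name STAR 2.7.0 as the aligner. Per the file headers, featureCounts 2.0.1 counted paired reads over exons of the RefSeq annotation of GRCm38.p6, with no option for strand or for multi-mapped reads, and per the labels the kit did not keep strand. The deposited log2 values only checked the numbering of the count columns, and 8 of 8 matched best with their own number (lowest r = 0.981). No column of sample values was left unused.

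Counts were tested with edgeR 4.0.16 (R 4.3.3; quasi-likelihood, TMM, robust, filterByExpr by group with minimum count 10 and minimum total 15) over 8 libraries in 4 groups of 2. Each p was adjusted by Benjamini-Hochberg over 11081 genes and called under 0.05. Intervals of ± on log2 fold changes are standard errors from the F statistic. The fits were tested on simulated data. Lists were described by counts and medians, with no test of a list. A promoter core was searched in RefSeq windows (a further pattern is not reported here) and shared 50-base stretches in GENCODE M21 transcripts.

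The members and all lists were chosen with earlier results of these data known. Named genes were Trim21, Trim25 and Trim30a, members called in TubB minus mock with at least a 2-fold difference and no overlap, the 2 members of smallest p in comparisons without calls, and the 5 highest in mock and in LPS_IFNg_TubB. Trim13, Trim32, Trim41, Trim2, Trim69 and the partner genes were named after their values were seen. Alternatives were RLE size factors, no count filter, the compared groups alone, a replicate block, DESeq2 1.42.0, each library left out and, added after the data were seen, numbered copies summed with their gene. A planned comparison of member proteins was not made, and shared stretches and exon overlap took its place.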

Additional observations from a re-analysis of the deposited data

Results flagged for a closer look

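Rows outside the family's symbol rule held counts. The numbered copy of Trim25, on a scaffold outside the chromosomes, held 9194 counts over the 8 libraries, more than the 5363 of the Trim25 row, and far above the 3 counts that a count of 0 allows. The numbered copy of Trim45 held 102 counts, against 1 count for the Trim45 row. The other numbered copies of TRIM genes held at most 9 counts.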

How the results depend on the processing

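No count of called members moved by more than 1.5 times under the alternatives run. Over all of them, leaving out each library included, members higher in TubB than in mock ranged from 10 to 13 and lower from 5 to 7, and in LPS_IFNg_TubB against LPS_IFNg from 9 to 12 higher and 4 to 6 lower. The comparisons of the stimulus as labelled and the interaction had 0 called members throughout. Of the 12 and 6 members called against mock, 9 and 5 kept their call in all 14 alternatives, and of the 11 and 6 called in LPS_IFNg_TubB against LPS_IFNg, 9 and 4 did. The others were Trim13, Trim17, Trim41 and Trim2, and Trim17, Trim35, Trim29 and Trim44, given in the report. Trim11, Trim3, Trim41 and Trim59 were gained under some. With 2 libraries a group, a fit that leaves 1 out assumes that the lone library varies like the other groups. No named value changed sign while called.

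With the replicate number as a block, 12 members were higher and 6 lower in TubB against mock, and 11 and 6 in LPS_IFNg_TubB against LPS_IFNg. The labels do not say what a number shares. Deviations of same-numbered libraries correlated at -0.05 to 0.15, highest for LPS_IFNg_TubB with TubB (0.15) and next for LPS_IFNg with mock (0.09). By the chi-square given above, same-numbered libraries of these pairs were closer than replicates within a group. Whether the numbers mark a pairing is therefore not settled, and the main test did not use them as one. The share of member promoters with the response element core was 20.0% in the whole window and 10.0% before the start alone. Members with a few counts were limited by depth.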
